A study of Mus musculus with 13 samples.

Results

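The unfolded protein response and the integrated stress response were followed at the transcript level in mouse glomeruli after antibody injury of podocytes, through 10 of their best known target and regulator genes. The members, *Hspa5*, *Sdf2l1*, *Dnajb9*, *Herpud1*, *Xbp1*, *Atf4*, *Ddit3*, *Trib3*, *Chac1* and *Asns*, were taken by gene symbol, and all 10 were found among the 35967 symbols measured. Membranous nephropathy (MN) was induced in wild-type Balb/c mice with rabbit antibodies to THSD7A, a podocyte membrane protein. The methods of the study give male mice aged 14 to 15 weeks for the MN model, and no separate age for the sequenced mice. A single intraperitoneal injection of 2 mg was given in every group. Control mice received rabbit preimmune IgG (n = 5), and MN mice received anti-THSD7A IgG and were killed at day 1 (n = 4) or day 5 (n = 4). Control mice of both days form 1 group, and the labels do not give the day of each control mouse. The antibody is passively transferred rabbit IgG, not an autoantibody made by the mice, and whole glomeruli hold podocytes, endothelial cells and mesangial cells together. In such bulk RNA, fewer cells of a type and less RNA per cell cannot be told apart.

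The endoplasmic reticulum (ER) folds secreted and membrane proteins. When unfolded proteins accumulate, the sensors IRE1α, PERK and ATF6 raise the chaperones, degradation factors and translocation machinery of the ER. PERK and related kinases also phosphorylate the translation factor eIF2α. General translation then slows while ATF4 is translated, and ATF4 raises amino acid genes, tRNA synthetases and, with CHOP, apoptosis genes. Podocytes make large amounts of membrane and matrix protein, and ER stress has been studied widely in glomerular disease. The comparison asks whether the transcripts of this program differed between MN and control glomeruli at an early or a late stage of injury.

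Several of these genes carry known ER stress or amino acid response elements near their start. The elements are shown here because the factors of the response are known to act through them. Windows from 250 bases upstream to 50 bases downstream of each RefSeq gene start (RefSeq windows of GRCm38.p6, placed on GRCm39 by exact match of their bases) were searched on both strands. The ER stress response element (ERSE) was searched as CCAAT and CCACG separated by 9 free bases, and ERSE-II as ATTGG and CCACG separated by 1 free base, so the ERSE forms share their last letters. The C/EBP-ATF response element (CARE), which ATF4 binds, was searched as TGATGNAA. The capitals mark the element in each stretch of 30 bases, written 5′ to 3′ along the gene's strand.
*Hspa5* ERSE, chr2:34662032-34662061, plus strand: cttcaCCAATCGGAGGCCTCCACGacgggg
*Herpud1* ERSE-II, chr8:95112996-95113025, plus strand: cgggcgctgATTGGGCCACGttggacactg
*Herpud1* CARE, chr8:95112934-95112963, plus strand: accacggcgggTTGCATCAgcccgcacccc
*Chac1* CARE, chr2:119181519-119181548, plus strand: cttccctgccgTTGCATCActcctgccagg
*Asns* CARE, chr6:7693214-7693243, minus strand: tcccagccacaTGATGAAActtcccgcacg
*Trib3* CARE, chr2:152185948-152185977, minus strand: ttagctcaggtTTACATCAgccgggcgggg

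The ERSE of *Hspa5* lay 65 to 47 bases before the RefSeq start, in a stretch that other transcripts of *Hspa5* in the GENCODE annotation hold as exon. Both *Herpud1* elements lay outside the annotated gene, the ERSE-II at -52 to -42 and the CARE at -112 to -105. The CARE of *Chac1* (-193 to -186) and of *Asns* (-23 to -16) lay in exons of longer annotated transcripts, and that of *Trib3* lay in the transcribed part (15 to 22), also in an exon. The *Herpud1*, *Chac1* and *Trib3* CARE read in the reverse direction. ERSE was present in 39 of 32851 mouse windows of this length (0.119%), ERSE-II in 12 (0.0365%) and CARE in 1304 (3.97%). The full letters of the XBP1 element TGACGTGG (0.676% of windows) and of the cAMP response element TGACGTCA (1.79%), which share their first letters, were in 0 of 10 member windows. A match gives letters in a window, and binding was not measured.

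Transcript levels are given as TPM, a unit that corrects for transcript length and rescales each library to a fixed total. Levels of different genes can be compared in this unit, but the number of reads behind a level is lost, and counting error is therefore unknown. In control glomeruli the members ranged over more than 100-fold in TPM. *Hspa5* was the highest (677 ± 119 TPM, SD, n = 5) and ranked 171 among all symbols by mean control TPM. *Xbp1* (193 ± 21.4 TPM), *Atf4* (154 ± 7.84 TPM) and *Herpud1* (147 ± 23.9 TPM) followed, with overlapping ranges between *Atf4* and *Herpud1*. *Dnajb9* (67.9 ± 6.92 TPM), *Ddit3* (56.5 ± 3.53 TPM) and *Sdf2l1* (52.1 ± 14.0 TPM) formed a middle group in which each gene's range overlapped the next. *Chac1* (4.90 ± 1.88 TPM) and *Asns* (4.33 ± 0.820 TPM) overlapped as well, and *Trib3* was the lowest (1.60 ± 0.308 TPM). *Hspa5* and the genes of the transcription factors XBP1, ATF4 and CHOP were thus well above the filter on low TPM in the absence of injury, while *Chac1*, *Asns* and *Trib3* were nearer to it.

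No member passed the test at either stage of MN. Of the 10 members, 0 were called at day 1, 0 at day 5 and 0 between day 5 and day 1 by limma with Benjamini-Hochberg adjustment. A gene counted as called when its adjusted p-value was under 0.05 and its log2 fold change was past 0.5 in either direction. Over all 14322 tested genes the share called was 0.0908% at day 1, 3.21% at day 5 and 1.81% between the days. At an unadjusted p-value under 0.05 there was 1 member at day 1 (*Dnajb9*), 2 at day 5 (*Ddit3* and *Dnajb9*) and 0 between the days, beside 12.6%, 20.1% and 15.5% of all tested genes. The median log2 fold change of the members was -0.11 at day 1 and -0.06 at day 5, beside medians of 0.00 over all tested genes at both days. At day 1, 7 of 10 members had a log2 fold change below 0, and at day 5, 8 of 10, beside 50.8% and 50.7% of all tested genes. Members of this program are not independent of each other, so these counts describe the list.

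The intervals give the changes that the data leave room for. The highest upper bound of a 95% interval was 0.69 on the log2 scale at day 1 (*Asns*, 1.61-fold) and 0.57 at day 5 (*Trib3*, 1.49-fold). The lowest lower bounds were -0.82 at day 1 (*Sdf2l1*, a ratio of 0.568) and -0.63 at day 5 (*Hspa5*, a ratio of 0.646). A 2-fold rise therefore lay outside the interval of every member at both days, and smaller changes lay inside most of them. These log2 values are on the log2(scaled TPM + 0.5) scale, which understates changes of low genes such as *Trib3*.

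**Figure D1:**
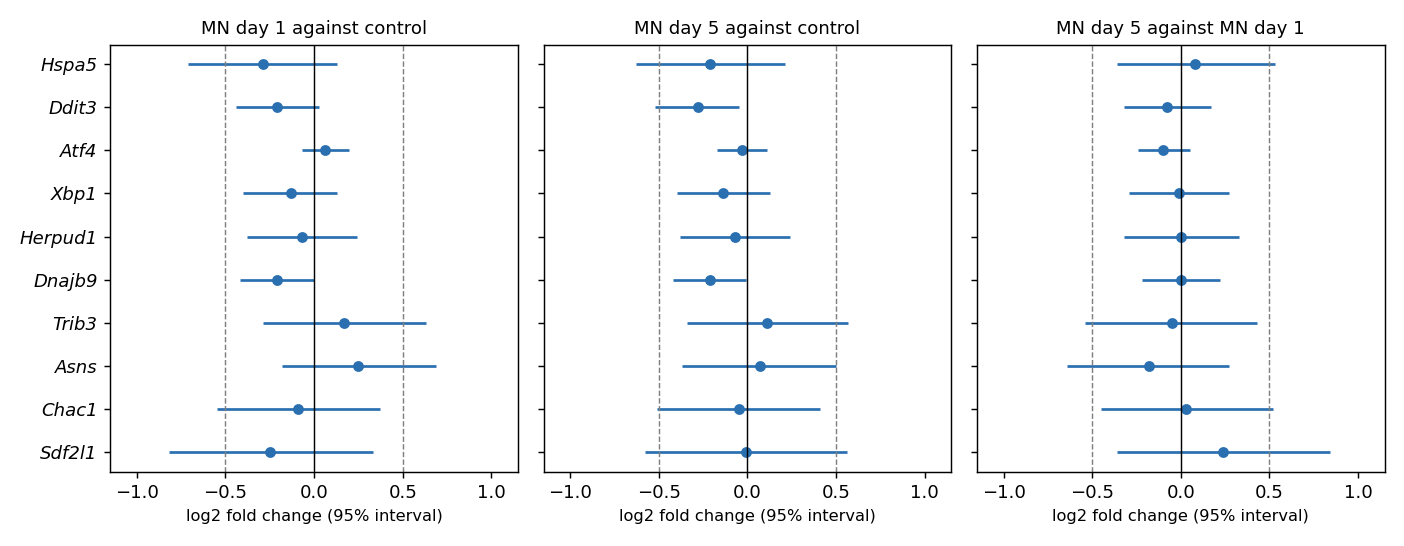
Log2 fold change (horizontal axis) of each member in the 3 comparisons, with its 95% interval from the limma fit; dashed lines mark an absolute log2 fold change of 0.5. The points lie between -0.29 and 0.25, and the intervals of *Ddit3* at day 5 and of *Dnajb9* at both days end just below 0.

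*Hspa5* encodes BiP, the main Hsp70 chaperone of the ER lumen and the protein that holds the sensors inactive. Its TPM was 812, 661, 783, 538 and 590 in control replicates 1 to 5, 444, 566, 813 and 385 in MN day 1 replicates 1 to 4, and 579, 554, 459 and 690 in MN day 5 replicates 1 to 4. The day 1 libraries held both the lowest and the highest value of all, and the groups overlapped. The log2 fold change was -0.29 ± 0.20 (SE) at day 1 (adjusted p = 0.569) and -0.21 ± 0.20 at day 5 (adjusted p = 0.626). The 2 MN means, 552 ± 189 TPM and 570 ± 95.2 TPM, lay near each other, with a log2 difference of 0.08 (95% interval -0.36 to 0.53).

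*Sdf2l1* encodes an ER protein that works with J-domain co-chaperones of BiP. Its TPM was 62.0, 48.1, 71.0, 38.1 and 41.4 in the control libraries, 28.7, 47.3, 74.2 and 28.8 at day 1, and 53.9, 44.3, 40.6 and 60.5 at day 5. The spread at day 1 covered both ends of the control range, as for *Hspa5*. Its log2 fold change was -0.25 ± 0.26 at day 1 (adjusted p = 0.740) and -0.01 ± 0.26 at day 5 (adjusted p = 0.995). *Sdf2l1* varied more within groups than any other member, with a standard deviation of 0.45 on the log2 scale, which was larger than that of 87.3% of tested genes.

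*Dnajb9* encodes ERdj4, a BiP co-chaperone that restrains IRE1α. Control libraries held 74.3, 70.2, 56.8, 66.0 and 72.3 TPM, day 1 libraries 54.6, 60.3, 62.1 and 50.0 TPM, and day 5 libraries 56.7, 57.6, 51.1 and 62.7 TPM. MN libraries sat in or just below the lower part of the control range at both days, and control replicate 3 lay among them. Its log2 fold change was -0.21 ± 0.10 at both days, with an adjusted p of 0.394 at day 1 and 0.236 at day 5 (limma). The difference did not pass the threshold at either day.

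*Herpud1* encodes a membrane protein of the ER-associated degradation complex. Control libraries had 144, 138, 135, 131 and 189 TPM, day 1 libraries 140, 146, 161 and 98.7 TPM, and day 5 libraries 147, 129, 128 and 141 TPM. Control replicate 5 stood above the other control libraries and MN day 1 replicate 4 below all others. The log2 fold change was -0.07 ± 0.14 at both days (adjusted p = 0.879 and 0.854). Without control replicate 5 it was 0.04 ± 0.12 at each day. Control replicate 5 also had the highest summed TPM of 8 proximal tubule markers among all libraries (8669, against 2336 to 3977 in the other control libraries), and the part of tubule RNA in its *Herpud1* value was not tested.

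**Figure D2:**
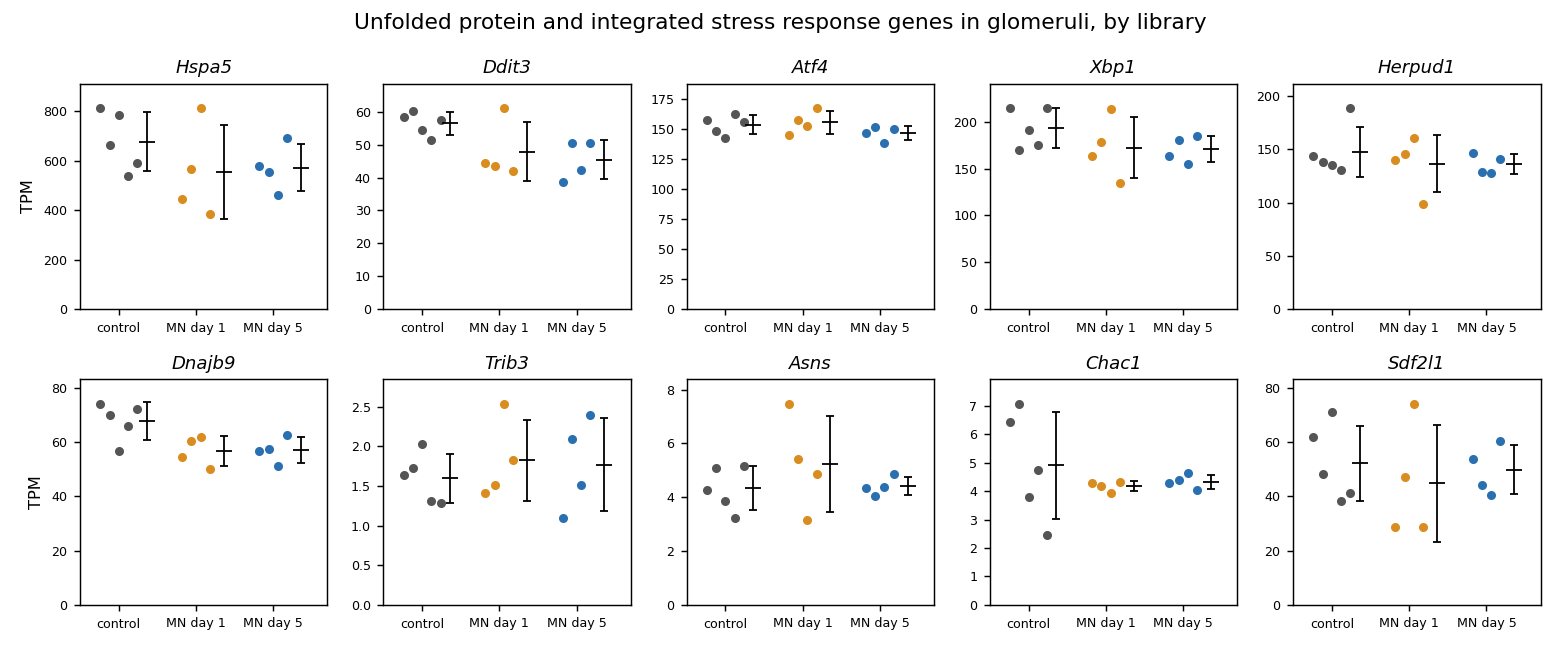
TPM of each member in every library (vertical axes from 0; points in replicate order, 5 control, 4 MN day 1 and 4 MN day 5), with the mean and SD of each group in black. The groups overlap for every member but *Ddit3*, whose 4 day 5 values (38.5 to 50.6 TPM) lie below the 5 control values (51.3 to 60.2 TPM).

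The transcription factors of the response differed in spread. Their standard deviation within groups on the log2 scale was 0.20 for *Xbp1*, 0.17 for *Ddit3* and 0.09 for *Atf4*, beside 0.15 for *Dnajb9*. *Xbp1* encodes the factor that IRE1α activates by splicing its mRNA. It was measured at 215, 170, 191, 175 and 215 TPM in control libraries, 163, 178, 214 and 135 TPM at day 1, and 163, 181, 155 and 185 TPM at day 5. Its log2 fold change was -0.13 ± 0.12 at day 1 and -0.14 ± 0.12 at day 5 (adjusted p = 0.697 and 0.605). The deposited values are sums per gene, so spliced and unspliced *Xbp1* could not be told apart.

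*Atf4* encodes the central factor of the integrated stress response. It was the most uniform member, with 158, 149, 143, 163 and 156 TPM in control libraries, 145, 158, 153 and 168 TPM at day 1, and 147, 152, 139 and 150 TPM at day 5. Its log2 fold change was 0.06 ± 0.06 at day 1 (95% interval -0.07 to 0.20) and -0.03 ± 0.06 at day 5 (-0.17 to 0.11), the narrowest intervals of the list. Its standard deviation within groups was 0.09 on the log2 scale, beside a median of 0.17 over all tested genes. ATF4 is controlled mainly at translation, which these data do not measure.

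*Ddit3* encodes CHOP, a factor that ATF4 induces and that promotes cell death under prolonged stress. Its TPM was 58.5, 60.2, 54.6, 51.3 and 57.6 in the control libraries, 44.4, 43.6, 61.2 and 42.1 at day 1, and 38.5, 50.4, 42.3 and 50.6 at day 5. All 4 day 5 values lay below all 5 control values in TPM. The closest values overlapped after scaling between libraries, and such a lower non-overlapping range in TPM was found for 5.71% of all tested genes at day 5. At day 1, 3 of 4 libraries lay below the control range and MN day 1 replicate 3 lay above it. Its log2 fold change was -0.21 ± 0.11 at day 1 (adjusted p = 0.450) and -0.28 ± 0.11 at day 5 (95% interval -0.52 to -0.05, adjusted p = 0.160). Among the members this was the lowest adjusted p-value, and the interval at day 5 lay on the side opposite to an induction. Without MN day 1 replicate 3 the standard error at day 5 was 0.08 and the adjusted p-value 0.0692, and the log2 fold change at day 1 was -0.32 ± 0.09 (adjusted p = 0.130). That library is outside the day 5 comparison, and the day 5 log2 fold change stayed at -0.28. Without MN day 5 replicate 1 the day 5 value was -0.225 ± 0.116 (limma adjusted p = 0.371). Without MN day 1 replicate 4 the day 1 value was -0.152 ± 0.116 (limma adjusted p = 0.701).

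*Ddit3* (chr10:127124268-127132163, plus strand, GRCm39) overlaps *Mars1*, the methionyl-tRNA synthetase gene, on the opposite strand, and the annotation holds 2 entries under its symbol. It also overlaps *Mbd6* and *Gm4189* on the opposite strand, and *Gm20492* and *Gm66222* on its own. *Hspa5*, *Xbp1*, *Herpud1*, *Dnajb9*, *Trib3* and *Asns* each overlap a gene on the opposite strand as well. Strand use in the quantification is not stated in the sources used here, and reads from shared stretches could then not be told apart. *Mars1* had 25.3 to 38.3 TPM in control libraries, 26.3 to 40.6 TPM at day 1 and 24.4 to 33.9 TPM at day 5, and its log2 fold change was 0.15 ± 0.15 at day 1 and 0.04 ± 0.15 at day 5. No other member had another gene with a near-identical transcript.

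The ATF4 targets *Trib3*, *Asns* and *Chac1* were the lowest members in TPM. *Trib3* encodes a pseudokinase that feeds back on ATF4 and CHOP. Its TPM was 1.64, 1.73, 2.03, 1.31 and 1.29 in the control libraries, 1.41, 1.51, 2.54 and 1.83 at day 1, and 1.09, 2.09, 1.51 and 2.39 at day 5. Day 5 libraries spread on both sides of the control range, and the log2 fold change was 0.17 ± 0.21 at day 1 and 0.11 ± 0.21 at day 5 (adjusted p = 0.785 and 0.830).

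*Asns* encodes asparagine synthetase, a classical amino acid response gene. It had 4.28, 5.10, 3.86, 3.24 and 5.16 TPM in control libraries, 7.48, 5.41, 3.17 and 4.88 TPM at day 1, and 4.33, 4.05, 4.37 and 4.86 TPM at day 5. MN day 1 replicate 1 was the highest library of all and MN day 1 replicate 3 the lowest, the reverse of their order for *Hspa5*. It differed from control by a log2 fold change of 0.25 ± 0.20 at day 1 (adjusted p = 0.634) and 0.07 ± 0.20 at day 5 (adjusted p = 0.900). Without MN day 1 replicate 3 the day 1 value was 0.46 ± 0.17 (adjusted p = 0.205). Leaving out 1 library at a time, the day 1 value ranged from 0.08 to 0.46.

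*Chac1* encodes a glutathione-degrading enzyme. Its TPM was 6.43, 7.08, 3.81, 4.73 and 2.47 in the control libraries, 4.28, 4.19, 3.95 and 4.33 at day 1, and 4.27, 4.39, 4.63 and 4.03 at day 5. All 8 MN libraries lay inside the control range. The coefficient of variation was 38.4% in the control group, 4.09% at day 1 and 5.76% at day 5, a difference in spread that was not tested. The log2 fold change was -0.09 ± 0.21 at day 1 and -0.05 ± 0.21 at day 5 (adjusted p = 0.909 and 0.930), and without control replicate 5 it was -0.27 ± 0.16 and -0.24 ± 0.16.

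Levels of the ER chaperones varied together from library to library. On log2 values over the 13 libraries, the member most like *Hspa5* was *Sdf2l1* (Pearson r = 0.93). The 5 tested genes most like *Hspa5* were *Pdia4* (r = 0.95), *Hyou1* (0.94), *Sdf2l1* (0.93), *Creld2* (0.93) and *Calr* (0.90). All of them encode ER folding factors or chaperones. Their Spearman rho with *Hspa5* lay between 0.87 and 0.96, and r was 0.85 to 0.97 without the 2 libraries farthest from the median of *Hspa5* (MN day 1 replicate 4 and MN day 5 replicate 3). Taken on deviations from the group means, r was 0.92 to 0.97. These genes were picked for their likeness among 14321, and libraries share their preparation, so the coefficients are descriptions with no test.

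Likeness to *Hspa5* differed between the gene lists. Of 20 other ER chaperones and folding enzymes on the list, 17 had a positive r with *Hspa5* (median 0.76), beside a median of 0.00 over all tested genes. The median was 0.22 for 17 ER-associated degradation genes, 0.05 for 10 stress response factors and -0.36 for 12 amino acid genes. It was 0.00 for 17 genes of the sensors and eIF2 machinery and -0.01 for 16 translocation and vesicle export genes. For 12 tRNA synthetases it was -0.15, and for 6 apoptosis genes 0.04. Lists outside the response reached medians of 0.68 (9 heat-shock and immediate early genes) and -0.44 (8 proximal tubule markers and 6 distal nephron markers). *Xbp1* was most like *Herpud1* (r = 0.81) and *Dnajb9* and *Ddit3* were most like *Xbp1* (0.75 and 0.74). *Atf4*, *Asns* and *Chac1* had no member above an r of 0.25, 0.11 and 0.05. *Trib3* was most like *Sdf2l1* (0.45).

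Some MN libraries were high or low for many members at once. MN day 1 replicate 3 held the highest value of its group for 7 of 10 members, and MN day 5 replicate 4 did so in its group for 7 of 10. MN day 1 replicate 4 held the lowest for 5, and MN day 5 replicate 3 for 6. MN day 1 replicate 3 was also the lowest for 2, and MN day 1 replicate 4 the highest for 2. In the control group replicate 5 was the highest for 3 and replicate 4 the lowest for 5. The same shares over all tested genes were not computed. The cytosolic heat-shock genes, which are known to respond to heat and tissue handling, were in part high or low in the same MN libraries. *Hsph1* was at 29.2, 42.3, 126 and 28.1 TPM in MN day 1 replicates 1 to 4, and *Hspa1b* was at 14.0, 12.1, 190 and 7.89 TPM. The summed TPM of 9 heat-shock and immediate early genes was 1227, 1819, 3988 and 1106 in these libraries, beside 2144, 2508, 2844, 1806 and 2901 in control replicates 1 to 5 and 2315, 1940, 1623 and 2762 in MN day 5 replicates 1 to 4. In the day 1 group the order was that of *Hspa5*, whereas control replicate 5 had the highest control sum with 590 TPM of *Hspa5*, and control replicate 1, the highest control library for *Hspa5*, had 29.8 TPM of *Hspa1b* against 131 TPM in control replicate 5. Over the 13 libraries, 7 of the 9 had a positive r with *Hspa5* (median 0.68), and *Fos* (-0.32) and *Junb* (-0.4) had a negative r. The methods describe collagenase digestion at 37 °C for isolating glomeruli and name a mechanical route for co-immunoprecipitation, and they do not name the route for these libraries. With the mean level of these 9 genes as a covariate, chosen after seeing the data, the day 1 log2 fold change was -0.09 ± 0.15 for *Hspa5*, 0.01 ± 0.21 for *Sdf2l1* and -0.09 ± 0.07 for *Ddit3*. The score rises and falls with *Hspa5* across libraries, so this fit cannot separate handling from the stress response. A handling effect was not tested. At day 5, 1 of the 9 was called higher (log2 fold change 0.51, limma adjusted p = 0.0175), beside 2.42% of all tested genes. The other 8 had a log2 fold change below 0 at day 5, and the median of the 9 was -0.18. Without MN day 1 replicate 3 the day 1 log2 fold change was -0.48 ± 0.17 for *Hspa5* (adjusted p = 0.183) and -0.52 ± 0.23 for *Sdf2l1* (adjusted p = 0.272). Without MN day 1 replicate 4 these were -0.14 and -0.07 (adjusted p = 0.855 and 0.954).

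**Figure D3:**
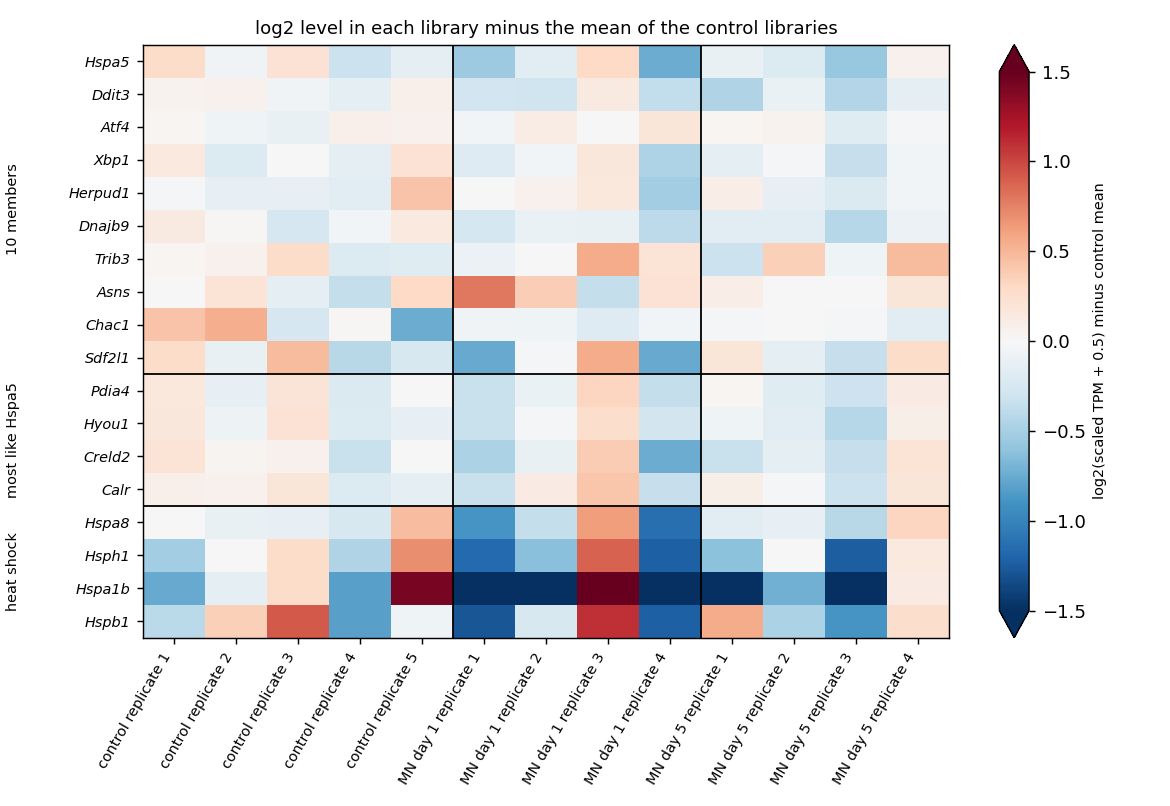
Level of each gene in each library minus its mean over the control libraries, as log2(scaled TPM + 0.5); colours end at 1.5 in either direction. The 10 members stand at the top, the 4 other genes most like *Hspa5* in the middle and 4 heat-shock genes at the bottom, and MN day 1 replicate 3 is high and MN day 1 replicates 1 and 4 are low for *Hspa5*, *Sdf2l1*, the middle and the bottom genes.

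Markers of the glomerular cell types were present in every library. Podocyte markers summed to 7578 to 10222 TPM in control, 8385 to 10261 TPM at day 1 and 9139 to 9819 TPM at day 5, and all 8 were tested. By these sums, transcripts of the podocyte list were present in every library, and the labels name glomeruli without naming a cell type. Within that list *Cdkn1c*, a cell cycle inhibitor of mature podocytes, was called higher at day 5 (log2 fold change 0.72 ± 0.10, limma adjusted p = 0.000708), and *Synpo*, an actin-binding protein of foot processes, had 1350 to 1552 TPM in control, 1074 to 1314 TPM at day 1 and 915 to 1159 TPM at day 5. The log2 fold change of *Synpo* was -0.25 ± 0.07 at day 1 (adjusted p = 0.241) and -0.46 ± 0.07 at day 5 (adjusted p = 0.00197), under the required size, and both genes were chosen after their values were seen. Mesangial markers summed to 1634 to 2362 TPM in control, 1945 to 2054 TPM at day 1 and 2285 to 2663 TPM at day 5. Endothelial markers summed to 4466 to 5611, 4390 to 5175 and 5254 to 5576 TPM. Both sums lay higher in all day 5 libraries than in all day 1 libraries, and 0 of 6 genes of each list were called. The share of all tested genes that separate in this way between the days was not computed. TPM share a fixed total in each library, so the sums are descriptions only. Proximal tubule markers summed to 2336 to 8669 TPM in control, 4149 to 7564 TPM at day 1 and 3035 to 3660 TPM at day 5. All 8 of them had a log2 fold change above 0 at day 1 (median 0.75) and 0 of 8 were called, and all 6 distal nephron markers were above 0 as well (median 0.67, 0 of 6 called). Between day 5 and day 1, all 8 proximal tubule markers lay below 0 (median -0.8, 0 of 8 called). All 6 distal nephron markers lay below 0 there too (median -1.0). Of these, 2 of 6 were called lower, beside 1.81% of all tested genes called in either direction. All 8 proximal tubule markers had a negative r with *Hspa5* (median -0.44), and with their mean level as a covariate, also chosen after seeing the data, the day 1 log2 fold change of *Hspa5* was -0.07 ± 0.23. The part of tubule RNA in the *Hspa5* values was not tested. Leukocyte markers were low (20.4 to 44.7 TPM, 4 of 6 tested, *Cd3e* and *Adgre1* under the filter), and plasma cells, which express this program strongly, had 2 of 5 markers tested (49.7 to 71.7 TPM), with *Mzb1*, *Pou2af1* and *Cd79a* under the filter. The 5 proliferation genes were called at day 5 (12.4 to 22.8 TPM in control, 87.2 to 136 TPM at day 5), so the same libraries did show a called change elsewhere. Their log2 fold changes, 1.67 to 2.99, lay far above the member intervals and do not show whether smaller changes would be called.

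The rest of the pathway was read from lists of 113 genes, of which 110 were tested. In all, 0 of 110 were called at day 1, 1 of 110 at day 5 (2.42% of all tested genes were called higher there) and 0 of 110 between the days. The median log2 fold change was -0.01 at day 1 and 0.03 at day 5. At an unadjusted p-value under 0.05 there were 6, 18 and 13 genes, again beside 12.6%, 20.1% and 15.5% of all tested genes.

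The called gene was *Psat1*, phosphoserine aminotransferase of serine synthesis and a target of ATF4. It rose at day 5, from 6.59, 5.35, 7.08, 4.49 and 6.66 TPM in control libraries to 11.0, 13.3, 12.6 and 8.44 TPM, with 7.81, 6.72, 4.52 and 7.63 TPM at day 1. All day 5 values lay above all control and all day 1 values. The share of all tested genes with such a higher range at day 5 was not computed. The log2 fold change was 0.89 ± 0.19 at day 5 (adjusted p = 0.0129) and 0.17 ± 0.19 at day 1 (adjusted p = 0.755), and the difference between the days was 0.72 ± 0.20 (adjusted p = 0.0816). Without MN day 5 replicate 2, the highest library, the day 5 value was 0.80 ± 0.20 with an adjusted p of 0.0539.

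The other amino acid genes lay to both sides. Of 11 tested beside *Psat1*, 8 had a log2 fold change above 0 at day 5 (median 0.23). An unadjusted limma p-value under 0.05 was found for 5, beside 20.1% of all tested genes, and 0 were called, beside 3.21%. Of these 5, *Psph*, *Pycr1*, *Slc7a5* and *Slc7a1* lay above 0 and *Slc3a2* below. The lowest adjusted p-value of the 11 was that of *Slc7a1* (0.37 ± 0.11, adjusted p = 0.0613). These genes were named after their values were seen. *Slc7a5*, a large neutral amino acid transporter, was at 0.76 ± 0.25 (adjusted p = 0.104), *Mthfd2*, a mitochondrial folate enzyme, at 0.68 ± 0.35 (adjusted p = 0.308) and *Pycr1*, a proline synthesis enzyme, at 0.59 ± 0.22 (adjusted p = 0.155). These values are named for their size and were chosen after they were seen. *Slc3a2*, the partner chain of *Slc7a5*, was at -0.21 ± 0.07 (adjusted p = 0.0959). The lowest was *Cth*, cystathionine gamma-lyase, at -0.23 ± 0.29 at day 5 and 0.65 ± 0.29 at day 1 (adjusted p = 0.741 and 0.388). *Cth* had 17.5 TPM in control replicate 5 and 4.54 to 11.2 TPM in the other control libraries. *Phgdh*, the first enzyme of the same serine pathway as *Psat1*, was under the filter on low TPM, with at most 1.5 TPM in a library, as were *Slc7a11* and *Fgf21*.

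Among stress response factors, 10 of 11 were tested and 0 were called. *Atf5*, an ATF4-related factor that is also controlled at translation, had 28.9 ± 3.69 TPM in control, 29.3 ± 0.851 TPM at day 1 and 37.0 ± 5.53 TPM at day 5 (n = 5, 4 and 4). Its log2 fold change at day 5 was 0.38 ± 0.10 with an adjusted p of 0.0403 in the limma fit, below the required size. *Nupr1*, a stress-induced nuclear protein, was at -0.32 ± 0.16 (adjusted p = 0.294).

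**Figure D4:**
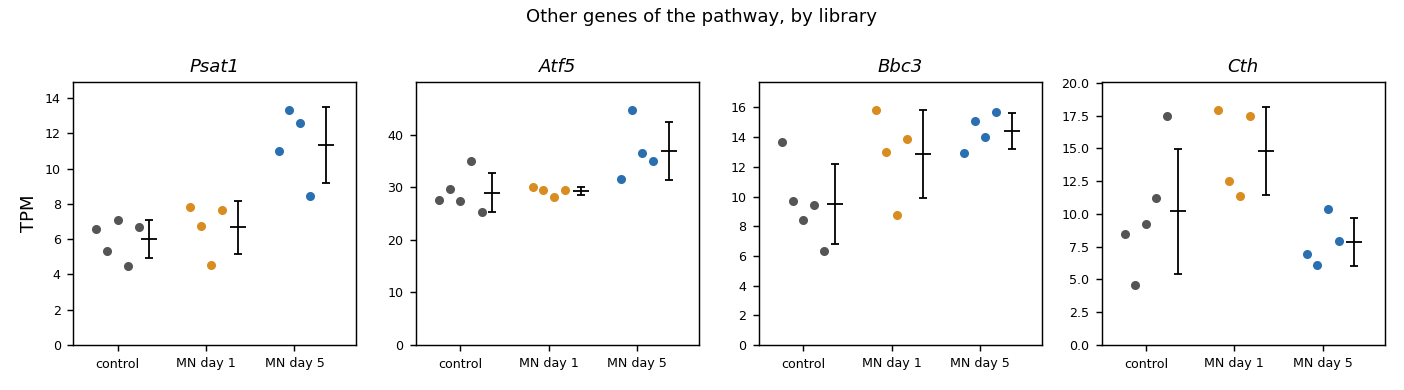
TPM of *Psat1*, *Atf5*, *Bbc3* and *Cth* in every library (vertical axes from 0; points in replicate order), with the mean and SD of each group in black. The 4 day 5 values of *Psat1* (8.44 to 13.3 TPM) lie above all 9 other libraries, while the day 5 ranges of *Atf5*, *Bbc3* and *Cth* overlap the control range.

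The sensors and the eIF2 machinery held 17 genes, 0 of them called. *Eif2b1*, a subunit of the eIF2 exchange factor, had 27.1, 22.4, 20.6, 28.9 and 24.6 TPM in control, 30.9, 36.9, 32.1 and 31.3 TPM at day 1, and 23.4, 24.8, 28.0 and 23.1 TPM at day 5. Its day 1 values lay above all control and all day 5 values, and it was chosen after its values were seen. A higher non-overlapping range in TPM at day 1 against control was found for 0.908% of all tested genes. The log2 fold change was 0.45 ± 0.10 at day 1 (adjusted p = 0.146) and 0.05 ± 0.10 at day 5 (adjusted p = 0.861), and -0.41 ± 0.11 between day 5 and day 1 (adjusted p = 0.0665). *Eif2s1*, which encodes the eIF2α subunit itself, was at 0.32 ± 0.15 at day 5 (adjusted p = 0.249) and *Eif2b5*, another subunit of the exchange factor, at -0.18 ± 0.06 (adjusted p = 0.124). Of 20 chaperones, 11 were above 0 at day 5. *P4hb*, a protein disulfide isomerase, was at 0.16 ± 0.05 (298 to 317 TPM in control, 325 to 347 TPM at day 5; adjusted p = 0.0719) and *Creld2* at -0.16 ± 0.19 (adjusted p = 0.730). Of 17 ER-associated degradation genes, *Ube2j1*, an ER ubiquitin-conjugating enzyme, was at 0.18 ± 0.06 (adjusted p = 0.0958) and *Derl3*, a Derlin of the retrotranslocation channel, at -0.25 ± 0.35 (adjusted p = 0.765). Both lists lay within 0.25 of no change in either direction.

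Of 16 translocation and vesicle export genes, 14 were above 0 at day 5 (median 0.07, 0 called). *Sec24d*, a COPII coat gene, was at 0.29 ± 0.15 (adjusted p = 0.325) and *Srprb*, a signal recognition particle receptor subunit, at -0.08 ± 0.12 (adjusted p = 0.798). The 12 tRNA synthetases, which ATF4 raises together with *Asns*, lay between -0.12 (*Lars*, now *Lars1*) and 0.15 (*Cars*, now *Cars1*) with a median of 0.01. Of 6 apoptosis genes, *Bbc3*, the BH3-only protein PUMA, was at 0.65 ± 0.19 (9.50 ± 2.68 TPM in control, n = 5, and 14.4 ± 1.23 TPM at day 5, n = 4; adjusted p = 0.0641, limma) and *Bcl2l11*, the BH3-only protein BIM, at -0.42 ± 0.13 (adjusted p = 0.0710). *Bbc3* passed the threshold without control replicate 1 or without MN day 1 replicate 3.

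**Figure D5:**
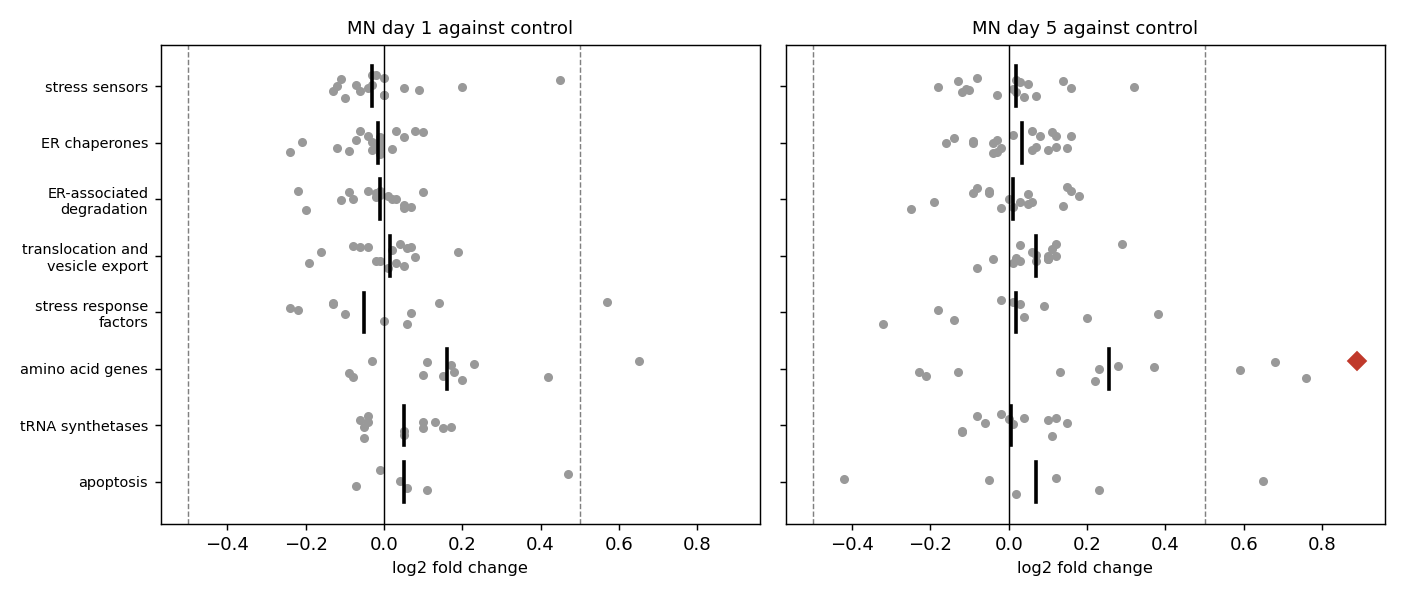
Log2 fold change (horizontal axis) of each tested gene in the 8 other pathway lists (vertical axis) at day 1 and day 5 against control; black bars are list medians, dashed lines mark 0.5 in either direction and the diamond is *Psat1* (0.89), the called gene. List medians lie between -0.05 and 0.16 at day 1 and between 0.01 and 0.25 at day 5, and at day 5 the amino acid genes spread most.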

How the data were processed

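Glomerular RNA libraries from 13 mice (5 control, 4 MN day 1, 4 MN day 5) were used. The authors trimmed reads with Trimmomatic 0.39 after FastQC 0.11.9, quantified them with kallisto 0.46.2 on GRCm39 (Ensembl annotation) and deposited 1 TPM value per gene symbol and library, rescaled within each library. The authors' own tests used DESeq2 on counts, which were not used here, so the read depth behind a value is unknown. Libraries were scaled by median-of-ratios factors (0.955 to 1.04, from the 15772 genes above 0 throughout), and log2(scaled TPM + 0.5) was used. The 14322 genes that reached a TPM of 1 in 4 or more libraries, all 10 members among them, were tested in 1 limma 3.58.1 fit over the 3 groups in R 4.3.3, with a mean-variance trend and Benjamini-Hochberg adjustment within each contrast.

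The members and lists were chosen with earlier results of these data known. Of 182 listed genes, all were matched by symbol, 11 through an older symbol. Named genes are all members, called genes of the other lists, and each list's highest and lowest gene at day 5. The 5 genes with the highest r with *Hspa5* are also named. Genes outside this rule are said to be chosen after their values were seen, stand for an overlap or lay under the filter. The heat-shock genes named singly and *Slc3a2* were picked by hand. Replicate numbers come from the titles. Loci are from GENCODE on GRCm39, windows from RefSeq (10 of 10 members matched), and near-identical transcripts were sought with BLAST+ 2.17.0 (90% identity or more over 50% or more of the transcript). Alternatives covered pseudocounts of 0.1 and 1, scaling, filters, the trend, the groups in the fit, the replicate block, array weights, the adjusted p-value alone and each library left out. A tubule score and a heat-shock score as covariates were added after seeing the data. Python 3.11.15 with matplotlib 3.10.9 drew the plots.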

Additional observations from a re-analysis of the deposited data

Results flagged for a closer look

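Of 33 combinations of gene and group, 2 had a sample far from the others of its group by Dixon's criterion, which chance meets in about 1 in 20 groups. *Ddit3* was at 61.2 TPM in MN day 1 replicate 3, against 42.1 to 44.4 TPM in the other day 1 libraries, and this library was also the highest of its group for *Hspa5* and the heat-shock genes. *Herpud1* was at 189 TPM in control replicate 5, against 131 to 144 TPM in the other control libraries, and this library also had the highest proximal tubule sum (8669 TPM).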

How the results depend on the processing

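Members called stayed at 0 of 10 in all 3 comparisons under all 25 alternative fits, and the lowest adjusted p-value of a member in any of them was 0.0692 (*Ddit3* at day 5). Of 750 member values under alternatives, 697 kept their direction and 53 turned it, none of them called. Part of the 697 could not turn. The filters, the trend and the groups in the fit leave the log2 fold change as it is. Leaving out a library of the group that is not compared leaves it nearly so. The count is therefore no measure of stability. TPM hold no read depth, replicates are separate mice, and groups of 4 and 5 leave changes under about 1.5-fold unresolved for the variable members; the cause of a turned sign was not tested.

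Other pathway genes called at day 5 numbered 0 to 2 when 1 library was left out and 2 by the adjusted p-value alone (*Psat1* and *Atf5*), and between the days 1 (*Cth*) when the fit left out the control group. The replicate block could be fitted over 12 same-numbered pairs, although each library comes from its own mouse. The correlation of their deviations lay between -0.056 and 0.091, beside -0.143 to 0.146 in other pairs, and 2 of 13 libraries correlated best with their own number. Under the replicate block the *Herpud1* values were 0.034 at day 1 and 0.039 at day 5, and *Psat1* at day 5 was 0.936 (adjusted p = 0.0418). Over all genes the block called 149 at day 1 and 348 at day 5, against 13 and 460 without it, and leaving out control replicate 5 called 218 at day 1.

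The turned log2 fold changes of day 5 against day 1 were *Xbp1* 0.004 and *Dnajb9* 0.009 without further scaling, *Xbp1* 0.026, *Dnajb9* 0.011 and *Trib3* 0.056 with array weights, and *Herpud1* -0.024 with quantile normalization, which also gave *Sdf2l1* 0.005 at day 5 against control. With the tubule score, day 5 against day 1 was *Hspa5* -0.152, *Xbp1* 0.029, *Asns* 0.002, *Chac1* -0.439 and *Sdf2l1* -0.070, and day 1 against control was *Chac1* 0.359 and *Sdf2l1* 0.046. With the heat-shock score, day 1 was *Herpud1* 0.052 and *Sdf2l1* 0.007, day 5 was *Herpud1* 0.031, *Asns* -0.003 and *Sdf2l1* 0.193, and *Herpud1* was -0.021 between the days.

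Leaving out 1 library at a time, ranges that crossed 0 were, at day 1, *Herpud1* -0.151 to 0.075 and *Chac1* -0.270 to 0.047. At day 5 they were *Atf4* -0.059 to 0.018, *Herpud1* -0.123 to 0.038, *Trib3* -0.008 to 0.259, *Asns* -0.021 to 0.142, *Chac1* -0.238 to 0.080 and *Sdf2l1* -0.110 to 0.114. Between the days they were *Hspa5* -0.073 to 0.277, *Ddit3* -0.136 to 0.038, *Xbp1* -0.119 to 0.093, *Herpud1* -0.144 to 0.083, *Dnajb9* -0.061 to 0.073, *Trib3* -0.176 to 0.092 and *Chac1* -0.001 to 0.071.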
